A study of Homo sapiens with 12 samples.

Results

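The keratins described here are KRT7, KRT8, KRT18, KRT19, KRT80 and KRT81, 6 of the 38516 genes in a table of RNA sequencing values from KYSE150 and KYSE510, 2 established human cell lines grown from squamous carcinoma of the esophagus. They were chosen by gene symbol, as keratins of simple epithelium and keratins often grouped with them, and all 6 were found. Each line was cultured in RPMI-1640 with 10% serum, as control cells or as cells in which HCP5, a long non-coding RNA gene, was silenced, with 3 libraries in each of the 4 groups. The series title ties HCP5 to apoptosis through c-Myc and UTP3. The silencing and control reagents are not described in the sources used here, so an effect of the reagent itself and of the loss of HCP5 cannot be told apart. Nothing states whether replicates came from separate cultures, so p-values measure the spread between these libraries only, which may be technical.

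Keratins are the intermediate filament proteins of epithelial cells, and a filament needs a type I and a type II chain in equal amounts. KRT8 (type II) and KRT18 (type I) are the basic pair of single-layered epithelium, KRT7 (type II) marks ducts and glands, and KRT19 (type I) is a short keratin without the usual tail domain. Squamous epithelium of the esophagus is instead built on KRT5 and KRT14 in its basal layer, and carcinomas of it often gain the simple keratins. The label of simple-epithelium keratins fits KRT7, KRT8, KRT18 and KRT19. KRT80, a type II keratin of many epithelia, and KRT81, a type II keratin of the hair shaft, are not classical members of that class.

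All but 1 of these genes lie in the type II cluster or beside it on chromosome 12 (GRCh38). KRT80 is at 52168996 to 52192000 on the minus strand, KRT7 at 52232520 to 52252186 on the plus strand, and KRT81 at 52285913 to 52291534 on the minus strand. KRT8 is at 52897187 to 52949954 on the minus strand, and KRT18, the type I gene that sits beside it, is at 52948871 to 52952901 on the plus strand. KRT19 lies in the type I cluster on chromosome 17, at 41523617 to 41528308 on the minus strand. These are the bounds of the exons that the deposited table counts.

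Some of the genes are close in sequence to each other or to genes outside the group, which bears on how short reads could be assigned. Coding exons and transcripts of GENCODE release 29 were compared. Over the aligned coding bases, gaps left out, KRT81 and KRT86, a neighbouring hair keratin outside the group, were 94.2% identical, KRT7 and KRT8 75.5%, and KRT18 and KRT19 65.7%. The coding sequence of KRT19 was the shortest of the 6, at 1200 bases, against 1266 in KRT80, 1290 in KRT18, 1407 in KRT7, 1449 in KRT8 and 1515 in KRT81. Of all 50-base words in the main transcript, 47.6% in KRT18, 44.6% in KRT81 and 37.1% in KRT8 also occur in a transcript of another gene. The share was 10.8% in KRT7, 1.79% in KRT19 and 0.416% in KRT80. Words were matched on either strand, so exons that overlap on opposite strands count toward these shares. KRT8 held 21.5% of the words of KRT18, and KRT7-AS, on the opposite strand, 10.4% of those of KRT7. For KRT81 and KRT8 the largest part was outside the group, with 38.4% in KRT86 and 21.5% in the pseudogene KRT8P3. The read length and the treatment of reads with several matches are not given in the sources used here, so what these words did to the counts was not tested.

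Depth was 20035025 to 28202422 reads assigned to genes per library. HCP5 was at 0.745 to 0.786 RPKM (reads scaled to exon length and library depth) in control and 0.315 to 0.579 in silenced KYSE150 libraries. In KYSE510 it was at 0.914 to 1.85 in controls and at 0.505 to 0.951 in silenced libraries, so the silencing was partial and the ranges overlapped in KYSE510. Of 8 squamous markers all 8 passed the filter on low values, which asks for 0.5 RPKM in any 3 libraries. Not all were present in both lines: PKP1 averaged 0.075 RPKM in KYSE510 controls and SOX2 0.16 in KYSE150 controls. The summed level of the 8 was 288 to 1954 RPKM, with KRT5 as the largest part. Marker sums of other cells were at most 0.901 RPKM for 7 fibroblast genes and 2.09 for 3 endothelial genes, nearly all of it CDH5 in KYSE510. Of 5 immune genes, CD68, a lysosomal protein that is not limited to immune cells, made up nearly all of a sum of 29.7 to 47.1, and PTPRC was at 0 or a trace. The count of all genes changed by silencing in KYSE150, 89, hung on single libraries: it was 24, 17 and 1291 without control replicates 1, 2 and 3, and 43, 29 and 15 without silenced replicates 1, 2 and 3.

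The lines carried different sets of simple keratins. KRT8 and KRT18 were abundant in both, KRT7 was abundant in KYSE510 and scarce in KYSE150, and KRT19 was low in KYSE510 and close to nil in KYSE150. Among control libraries 6 of 6 keratins differed between lines past an adjusted p of 0.05, where 62% of the 17823 genes tested did so. Higher in KYSE510 were 2 of them, against 28.3% of all genes, and lower were 4, against 33.7%. Line differences were thus common among all genes, and a count over 6 genes adds little to that. The sizes of the differences ranged from under 2-fold to over 100-fold.

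**Figure D1:**
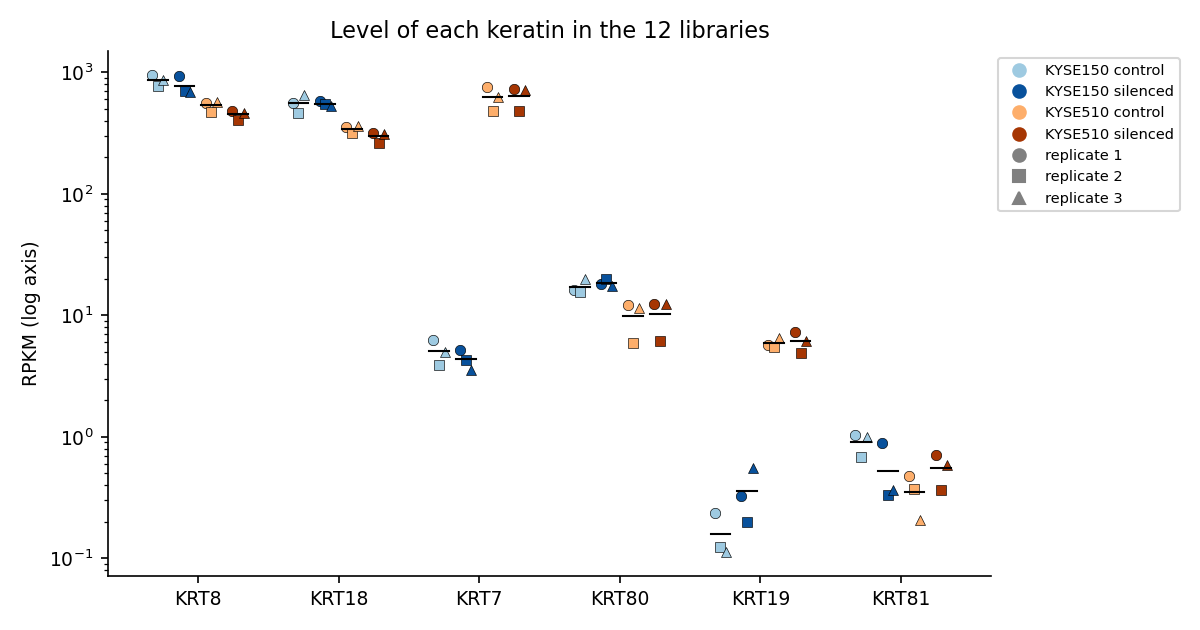
RPKM of each keratin (log axis) in the 12 libraries, coloured by line and treatment, with the replicate number as the marker shape and the group mean as a bar. KRT7 in KYSE510 sits between 480 and 761 RPKM and in KYSE150 between 3.55 and 6.29, while control and silenced libraries of a line lie beside each other.

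KRT7 showed the widest gap between lines. Control replicates 1, 2 and 3 had 6.29, 3.93 and 4.96 RPKM in KYSE150 and 761, 480 and 631 in KYSE510. The silenced replicates had 5.22, 4.26 and 3.55 in KYSE150 and 734, 484 and 711 in KYSE510. No KYSE150 library came near any KYSE510 library. Among controls the mean was 123-fold higher in KYSE510, a log2 difference of 6.81 (SE 0.22, limma adjusted p 4.90e-10). Among silenced libraries it was 148-fold higher, with a log2 difference of 7.04 (SE 0.22) and a limma adjusted p of 3.79e-10. By RPKM it ranked 54 to 90 among all genes of KYSE510 libraries and 6160 to 9315 in KYSE150. In bulk RNA, fewer cells that express a gene and less of its RNA per cell cannot be told apart.

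KRT19, a type I keratin like KRT18, differed in the same direction as KRT7 at far lower levels. Control replicates 1, 2 and 3 had 0.235, 0.125 and 0.113 RPKM in KYSE150 and 5.69, 5.52 and 6.49 in KYSE510. The silenced replicates had 0.326, 0.197 and 0.556 in KYSE150 and 7.33, 4.89 and 6.18 in KYSE510. The KYSE150 values rest on 6 to 35 reads per library and those of KYSE510 on 241 to 417. The highest KYSE150 library, silenced replicate 3, has a 95% Poisson interval of 0.387 to 0.773 RPKM, far under the lowest KYSE510 library, 4.89 (4.29 to 5.54). These intervals cover counting error only. The ratio of control means was 37.4, and of silenced means 17.1. On the log2(RPKM + 0.5) scale, which understates changes of low genes, it differed by 3.28 in controls (SE 0.17, limma adjusted p 2.31e-08) and by 2.95 in silenced libraries (SE 0.17, limma adjusted p 5.58e-08).

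KRT8 and KRT18 were higher in KYSE150, by similar factors. KRT8 had 958, 773 and 869 RPKM in control and 935, 700 and 688 in silenced replicates of KYSE150. In KYSE510 it had 563, 474 and 565 in control and 484, 404 and 465 in silenced replicates. All 6 KYSE150 libraries were above all 6 of KYSE510. The control mean was 1.62-fold higher in KYSE150, a log2 difference (KYSE510 minus KYSE150) of -0.70 (SE 0.14, limma adjusted p 0.000903), and in silenced libraries it was 1.72-fold higher, at -0.77 (SE 0.14, limma adjusted p 0.00044).

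KRT18, its partner, had 560, 466 and 648 RPKM in control and 580, 548 and 524 in silenced replicates of KYSE150. In KYSE510 it had 352, 318 and 359 in control and 320, 260 and 313 in silenced replicates. Here too the lines did not overlap. The control mean was 1.63-fold higher in KYSE150 (log2 difference -0.69, SE 0.12, limma adjusted p 0.000444) and the silenced mean 1.85-fold higher (-0.89, SE 0.12, limma adjusted p 6.21e-05). KRT8 took 0.473% to 0.659% of all reads in KYSE150 libraries and 0.278% to 0.389% in KYSE510.

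KRT80 was a keratin of middling level, higher in KYSE150. It had 16.2, 15.5 and 20.1 RPKM in control and 18.0, 19.7 and 17.5 in silenced replicates of KYSE150, and 12.2, 5.94 and 11.6 in control and 12.4, 6.21 and 12.4 in silenced replicates of KYSE510. The lines did not overlap, and replicate 2 was far under the other two in both treatments of KYSE510. The log2 difference was -0.83 (SE 0.28, limma adjusted p 0.0243) in controls and -0.87 (SE 0.28, limma adjusted p 0.0188) in silenced libraries. The call was lost without KYSE510 control replicate 2 (log2 difference -0.51, limma adjusted p 0.101) or KYSE150 control replicate 3 (-0.72, limma adjusted p 0.0747) in controls, and in silenced libraries without KYSE510 silenced replicate 2 (-0.55, limma adjusted p 0.0765) or KYSE150 silenced replicate 2 (-0.82, limma adjusted p 0.0544).

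KRT81, the hair keratin, was at the edge of detection, on 11 to 45 reads per library. It had 1.03, 0.682 and 1.005 RPKM in control and 0.888, 0.331 and 0.365 in silenced replicates of KYSE150. In KYSE510 it had 0.474, 0.369 and 0.207 in control and 0.713, 0.368 and 0.583 in silenced replicates. Controls of the lines did not overlap, silenced libraries did. The control mean was 2.59-fold higher in KYSE150 (log2 difference -0.73, SE 0.22, limma adjusted p 0.0117), and the silenced libraries differed by 0.06 (SE 0.22, limma adjusted p 0.806; interval -0.41 to 0.54). So 5 of 6 keratins were called between lines in silenced libraries, where 64.1% of all genes were. Of these, 2 were higher in KYSE510, against 24.2% of all genes, and 3 were lower, against 39.8%.

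With libraries permuted between lines within each treatment, an exact two-sided test gave 0.005 for KRT7, KRT8, KRT18, KRT19 and KRT80, the smallest value that 400 arrangements allow, and 0.145 for KRT81. Within 1 treatment 3 libraries against 3 cannot go below 0.1. The order of levels by RPKM followed from these values. In KYSE150 it was KRT8, KRT18, KRT80, KRT7, KRT81 and KRT19, except in silenced replicate 3, where KRT19 was above KRT81. In KYSE510 it was KRT7, KRT8, KRT18, KRT80, KRT19 and KRT81 within each library. Across KYSE510 libraries the ranges of KRT7 and KRT8 overlapped, as did those of KRT80 and KRT19.

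HCP5 silencing changed none of the 6 keratins past the threshold in either line. In KYSE150 0 of 6 were called, where 0.499% of all genes were, and in KYSE510 0 of 6, where 0.0393% were. Averaged over lines 0 of 6 were called, against 0.539% of all genes, and for the difference between lines 0 of 6, against 0%. A count of 0 among 6 genes is near these backgrounds. At an unadjusted limma p under 0.05 there was 1 of 6 in KYSE150, 0 in KYSE510, 0 averaged over lines and 1 for the difference between lines, each time KRT81. Of all genes 18.1%, 6.35%, 11.5% and 12.2% did so, in the same order, so 1 of 6 is near the background. The replicate block, which compares same-numbered libraries, and voom on the recovered reads also called 0 of 6 in each of these comparisons. Leaving out any 1 library gave 0 of 6 each time. Without KYSE150 control replicate 3, the log2 changes in KYSE150 were -0.17 for KRT8, 0.11 for KRT18, -0.19 for KRT7, 0.21 for KRT80, 0.32 for KRT19 and -0.43 for KRT81, with limma adjusted p-values of 0.272 to 0.707.

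**Figure D2:**
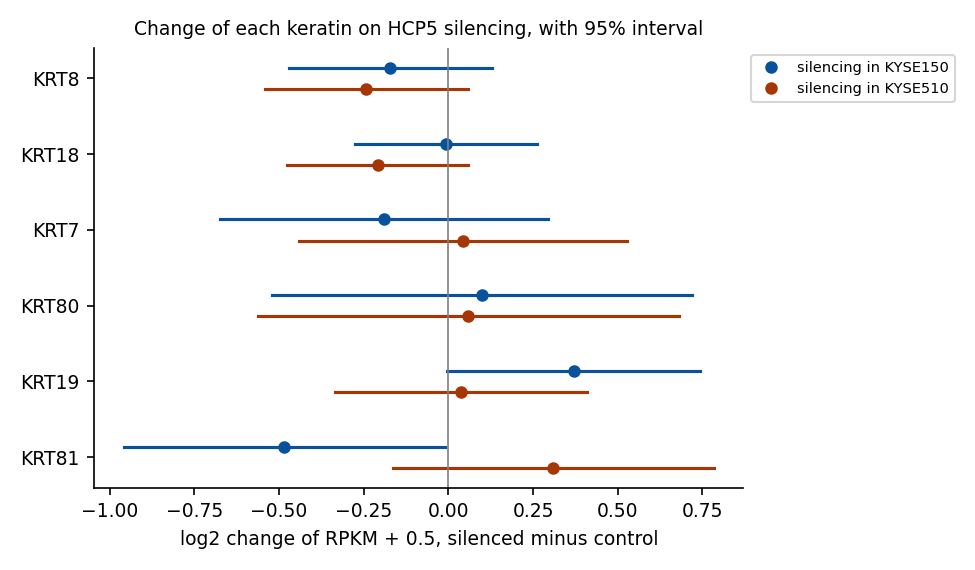
Log2 change of RPKM + 0.5 on silencing, silenced minus control, for each keratin in KYSE150 (blue) and KYSE510 (red), as the limma estimate with its 95% interval. Every interval includes 0 except that of KRT81 in KYSE150, which runs from -0.96 to -0.01.

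In each of the 6 same-numbered pairs KRT8 had the lower value in silenced cells, as the levels above show. The log2 change was -0.17 in KYSE150 (SE 0.14, 95% interval -0.47 to 0.13, limma adjusted p 0.518) and -0.24 in KYSE510 (SE 0.14, interval -0.54 to 0.06, limma adjusted p 0.862). The pairs of KYSE150 gave -0.34 to -0.03, and those of KYSE510 -0.28 to -0.22. Averaged over lines it was -0.21 (SE 0.10, limma adjusted p 0.451; with the replicate block, 0.0799), and permuting libraries within lines gave an exact two-sided p of 0.065. In each line the ranges of the 3 control and 3 silenced libraries overlapped. The same direction in 6 pairs thus stands beside a change that missed the threshold by limma, with the block and by permutation.

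KRT18 showed no such run of signs in KYSE150, where it was higher in 2 silenced libraries of 3 pairs and lower in 1 (log2 change -0.01, SE 0.12, interval -0.28 to 0.26, limma adjusted p 0.996). In KYSE510 it was lower in 3 of 3 pairs, by 0.14 to 0.29 on the log2 scale. The mean change there was -0.21 (SE 0.12, interval -0.48 to 0.06, limma adjusted p 0.88).

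KRT7 was lower in 2 of 3 silenced libraries of KYSE150 and higher in 2 of 3 of KYSE510. Its log2 change was -0.19 in KYSE150 (SE 0.22, interval -0.68 to 0.29, limma adjusted p 0.674) and 0.04 in KYSE510 (SE 0.22, interval -0.44 to 0.53, limma adjusted p 0.999). In KYSE510, replicate 2 was low in both treatments (480 and 484 RPKM), with the other 4 libraries at 631 to 761. The same replicate number was lowest in both treatments of KYSE510 for KRT7, KRT8, KRT18, KRT19 and KRT80. What set this replicate apart was not tested.

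KRT80 had KYSE510 pairs that lay close together, with log2 changes of 0.02, 0.06 and 0.09, although its replicates ranged from 5.94 to 12.4 RPKM. Its mean changes were 0.10 in KYSE150 (SE 0.28, limma adjusted p 0.895) and 0.06 in KYSE510 (SE 0.28, limma adjusted p 0.999). The interval in KYSE510, -0.56 to 0.68, carries the spread between replicate numbers. With the replicate block the adjusted p was 0.826.

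KRT19 was higher on silencing in 3 of 3 KYSE150 pairs, with 11, 6 and 6 reads in control replicates 1, 2 and 3 and 20, 13 and 35 in the silenced ones. Its log2 change was 0.37 (SE 0.17, interval -0.0028 to 0.74, limma adjusted p 0.279), and on recovered reads with voom 1.08 (SE 0.49). In KYSE510, where it is better measured, the change was 0.04 (SE 0.17, interval -0.34 to 0.41, limma adjusted p 0.998). The difference between lines was -0.33 (SE 0.24, limma adjusted p 0.528).

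KRT81 was lower in 3 of 3 silenced libraries of KYSE150 (log2 change -0.48, SE 0.22, unadjusted p 0.0461, limma adjusted p 0.27) and higher in 2 of 3 of KYSE510 (0.31, SE 0.22, limma adjusted p 0.925). The change differed between lines by 0.79 (SE 0.30, unadjusted p 0.0243, limma adjusted p 0.394), so the difference missed the threshold after adjustment. The control and silenced ranges overlapped in both lines.

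**Figure D3:**
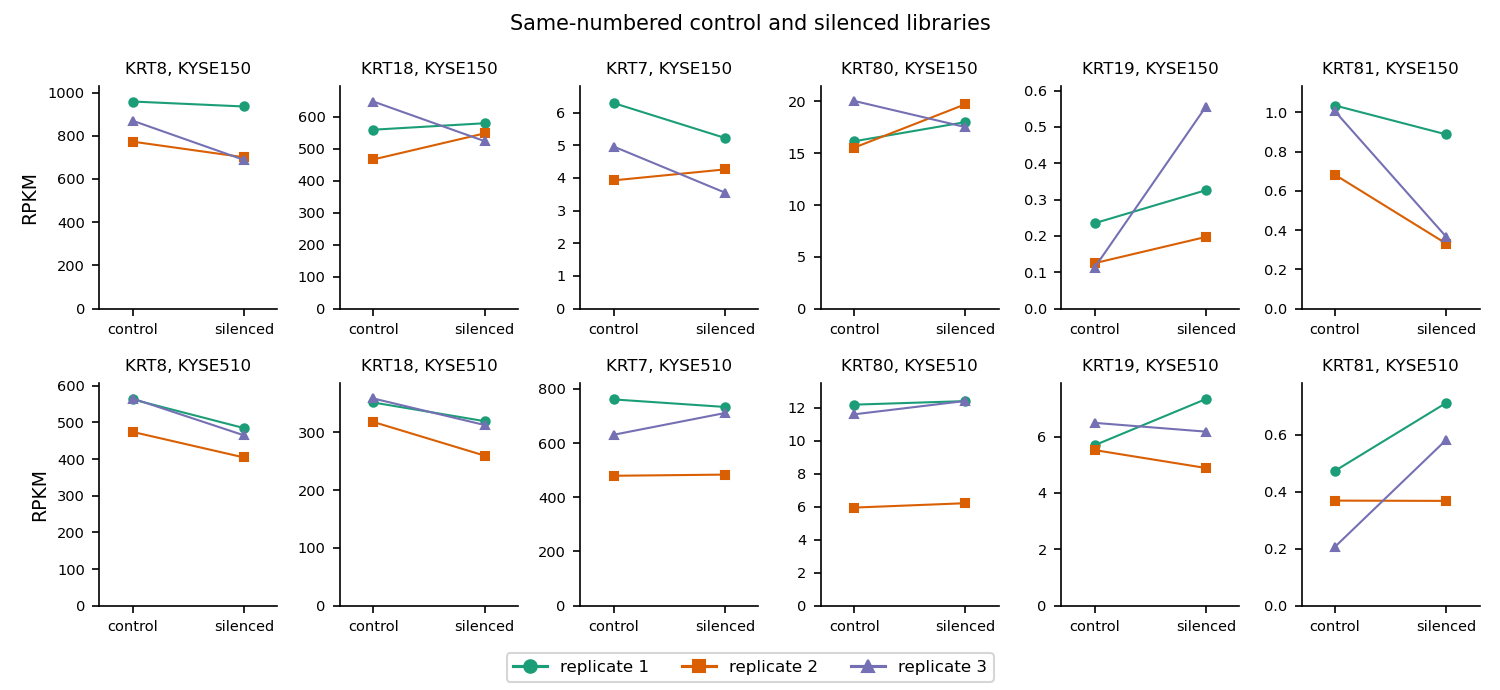
RPKM of each keratin in same-numbered control and silenced libraries, joined by lines, for KYSE150 (top) and KYSE510 (bottom), with each axis starting at 0. All 6 lines of KRT8 slope down; for KRT80 in KYSE510 the lines are nearly flat while replicate 2 lies near 6 RPKM and the others near 12.

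Since filaments pair 1 type II with 1 type I chain, the ratio of KRT8 to KRT18 was taken within each library, where the library total cancels. In RPKM, KRT8 exceeded KRT18 in all 12 libraries, by 1.28 to 1.71 times. RPKM divides by summed exon length, 6881 bases for KRT8 and 3218 for KRT18, while their main transcripts have 1882 and 1562 bases. The size of the ratio is thus not one of transcripts or of chains, and the same limit holds for sums, shares and orders of RPKM. The genes also share 525 bases of exon on opposite strands. The mean log2 ratio was 0.64 ± 0.19 in KYSE150 controls, 0.48 ± 0.18 in KYSE150 silenced libraries, 0.64 ± 0.05 in KYSE510 controls and 0.60 ± 0.03 in KYSE510 silenced libraries (SD, n = 3 each). Exact two-sided permutation tests gave 0.2 for silencing in KYSE150, 0.4 in KYSE510, 0.13 averaged over lines and 0.46 between lines, and 0.4 to 0.46 after Benjamini-Hochberg adjustment over these 4 comparisons. It was lower on silencing in 5 of 6 pairs. No difference in the ratio beyond the replicate spread was thus found, although each gene differed between lines.

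Summed over members in RPKM, with the limit of exon length given above, the balance of the types was not alike in the lines. Type II members (KRT7, KRT8, KRT80 and KRT81) exceeded type I members (KRT18 and KRT19) by 1.32 to 1.75 times in KYSE150 libraries and by 2.96 to 3.77 times in KYSE510. The mean log2 ratios were 0.68 ± 0.19 and 0.52 ± 0.18 in control and silenced KYSE150 and 1.73 ± 0.17 and 1.86 ± 0.09 in control and silenced KYSE510 (SD, n = 3 each). KRT7 is the only type II member that passed the threshold as higher in KYSE510. Outside the group, 4 of 12 tested keratins of stratified epithelium were also higher in KYSE510 among controls, and 2 were lower. Higher of type I were KRT17 (log2 difference 2.87, SE 0.59, limma adjusted p 0.00134) and KRT13 (2.88, SE 0.51, limma adjusted p 0.000459). Higher of type II were KRT4 (3.84) and KRT6B (3.22). The lower ones were KRT14, of type I, and KRT5, of type II.

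All 50 keratin genes of the table were then summed, to see what part of the keratin RPKM these 6 make up, which is not a part of RNA molecules. Their summed RPKM was 1234 to 1543 in KYSE150 libraries and 1160 to 1694 in KYSE510, so the totals of the lines overlapped while the makeup differed. The 6 held 66.0%, 69.7% and 53.8% of the keratin RPKM in KYSE150 control replicates 1, 2 and 3, and 56.3%, 59.9% and 33.2% in the silenced ones. In KYSE510 they held 58.2%, 63.8% and 53.7% in control and 52.5%, 55.1% and 40.5% in silenced replicates. Silencing went with a lower share in 6 of 6 pairs, with ranges that overlapped within each line. Without KYSE150 control replicate 3 the mean share differed by -18.0 percentage points on silencing in KYSE150, against -13.3 with it. It is given as a description, with no test, since it is a score over the chosen genes.

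The sum of the 6 members was lower in the silenced library in 5 pairs and higher in 1, and the sum of the other keratins was higher in all 6. In KYSE150 the other keratins summed to 795, 548 and 1327 RPKM in control and 1193, 852 and 2479 in silenced replicates. The KYSE510 sums were 1217, 727 and 1354 in control and 1409, 945 and 2219 in silenced replicates. Replicate 3 was highest in each group. KRT8 alone averaged 38.0% ± 6.75 of keratin RPKM in control and 28.6% ± 8.72 in silenced KYSE150, and 20.7% ± 2.46 and 16.0% ± 3.39 in KYSE510 (SD, n = 3 each).

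**Figure D4:**
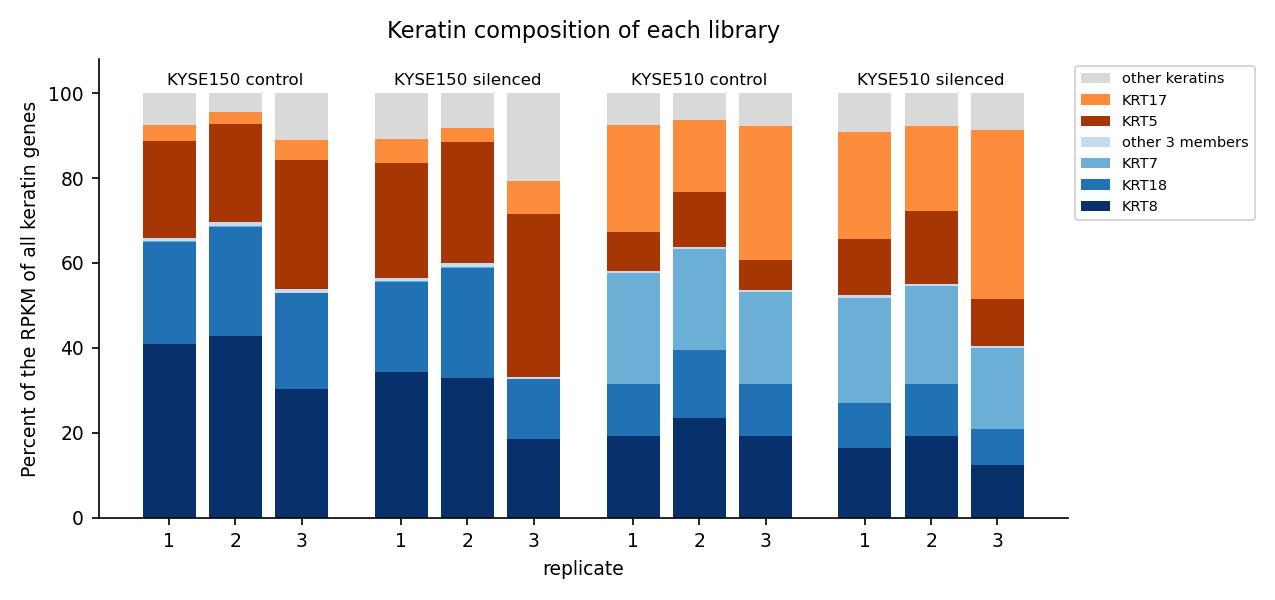
Percent of the RPKM of all 50 keratin genes taken by KRT8, KRT18, KRT7 and the other 3 members (blues), KRT5 and KRT17 (reds) and all other keratins (grey), 1 bar per library. The blue part of each silenced library is smaller than that of its same-numbered control, from 69.7% at the most to 33.2% at the least.

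Keratins outside the group with a mean of at least 10 RPKM in any group were KRT5, KRT6A, KRT6B, KRT10, KRT13, KRT14, KRT15, KRT16, KRT17 and KRT75. KRT5, the basal type II keratin, averaged 607 ± 239 RPKM in KYSE150 controls, 925 ± 436 in KYSE150 silenced, 242 ± 32.3 in KYSE510 controls and 389 ± 25.3 in KYSE510 silenced libraries (SD, n = 3 each). KRT14, its type I partner, averaged 44.2 ± 32.2, 195 ± 151, 5.60 ± 1.03 and 17.04 ± 2.65 in the same order. KRT17, a type I keratin of stressed and dividing epithelium, averaged 90.6 ± 41.4, 170 ± 109, 667 ± 296 and 882 ± 543.

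Of 21 keratins of stratified epithelium 12 were tested, and 0 were called for silencing in either line or averaged over lines. At the estimate they leaned upward, with 10 of 12 above 0 in each line and a median log2 change of 0.60 in KYSE150 and 0.34 in KYSE510, where the median of all genes was 0.08 and -0.02. The 6 members had medians of -0.09 and 0.04. With the replicate block, 6 of the 12 were called higher in KYSE150, 1 in KYSE510 and 5 averaged over lines, where 5.04%, 0.0842% and 2.06% of all genes were. Within lines these were KRT14 (log2 change 2.09, blocked adjusted p 0.00793), KRT10 (0.995, 0.0393), KRT16 (1.09, 0.0479), KRT6A (0.94, 0.0442), KRT17 (0.80, 0.0356) and KRT5 (0.58, 0.0347) in KYSE150, and KRT14 (1.53, 0.0395) in KYSE510, all by limma. The block called 0 of the 6 simple-epithelium members. Whether the members differ from the stratified keratins in their response was not tested.

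Between control lines 4 of the 12 stratified keratins were higher in KYSE510, against 28.3% of all genes, and 2 were lower, against 33.7%. The higher ones were led by KRT4 (log2 difference 3.84, limma adjusted p 2.91e-07) and KRT6B (3.22, 0.00106). The lower ones were KRT14 (-2.66, 0.000798) and KRT5 (-1.26, 0.00386). Of the other simple keratins, KRT23 was higher in KYSE510 controls (1.07, limma adjusted p 0.0176), at 0.15 to 1.18 RPKM there. Between silenced lines it missed the threshold (0.79, limma adjusted p 0.0618). KRT20 did not pass the filter. Of the 15 other hair keratins in the table, 0 passed it.

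Genes of glandular or simple epithelium other than keratins were compared between the lines, since KRT7 and KRT19 were higher in KYSE510. Of 16 listed, 11 were tested, and 7 were higher and 2 lower in KYSE510 controls, against 28.3% and 33.7% of all genes. On the log2(RPKM + 0.5) scale, which understates low genes, the 2 that were most higher were ELF3, an epithelial transcription factor (log2 difference 3.20, SE 0.21, limma adjusted p 1.93e-07), and AGR2, a secretory protein folding factor (3.13, SE 0.28, limma adjusted p 1.82e-06). The mean control RPKM of ELF3 was 3.77 in KYSE150 and 38.2 in KYSE510, and that of AGR2 0.016 and 4.19, so the ratio of means was larger for AGR2. SOX9 (-2.50, SE 0.21, limma adjusted p 1.33e-06) and CDH1, E-cadherin (-0.61, SE 0.12, limma adjusted p 0.001), were higher in KYSE150. On silencing 0 of the 11 were called in either line, with or without the replicate block. Averaged over lines the block called 1, MUC1, as higher (log2 change 0.32, blocked limma adjusted p 0.0398), where 2.06% of all genes were.

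Of 13 listed partners of keratin filaments, all tested, 4 were higher and 6 lower in KYSE510 controls, against 28.3% and 33.7% of all genes. EPPK1, epiplakin, was at 2.08 (SE 0.19, limma adjusted p 2.70e-06) and PPL, periplakin, at 1.26 (SE 0.14, limma adjusted p 1.17e-05). Of the plakophilins of the desmosome, PKP1 (-3.90, SE 0.15, limma adjusted p 2.57e-09) and PKP2 (-1.88, SE 0.14, limma adjusted p 4.16e-07) were lower. PKP3, the other plakophilin listed, was higher (0.51, SE 0.18, limma adjusted p 0.025). Of 13 other intermediate filament genes 6 were tested. NEFL (2.99, limma adjusted p 2.58e-08) and SYNM (2.74, limma adjusted p 5.44e-08) were higher in KYSE510. Higher in KYSE150 were LMNB1 (-0.23, limma adjusted p 0.0126) and VIM, vimentin of mesenchymal cells (-0.83, limma adjusted p 0.000444). VIM was scarce in both lines, averaging 0.42 RPKM in KYSE150 controls and 0.012 in KYSE510 controls. On silencing 0 of the 13 partners and 0 of the 6 filament genes were called in either line without the replicate block. With the block 2 partners were higher in KYSE150, where 5.04% of all genes were. They were PKP1 (blocked limma adjusted p 0.0187) and PKP3 (0.0409). Lower there was 1 filament gene, where 6.70% of all genes were called in either direction and 5.04% as higher. In KYSE510 the block called 0 of both lists.

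Some rows could hold reads of a neighbour or a copy, so these were compared with each member. KRT7 shares 282 bases of exon, 6.89% of its length, with a row on the opposite strand that GENCODE names KRT7-AS, at 52245048 to 52247448 on chromosome 12. The reads of that row came to 31.0% to 33.0% of those of KRT7 in KYSE510 libraries and 44.5% to 51.8% in KYSE150. Across the 12 libraries the deviations of both genes from their group means had a Pearson r of 0.996, a description over libraries that share their depth. The use of strand in counting is not given in the sources used here, and without it reads of the overlap cannot be told apart.

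KRT8 and KRT18 share 525 bases on opposite strands, 7.63% and 16.3% of their exon lengths in the table. Rows named as KRT8 pseudogenes held reads equal to 2.38% to 2.97% of those of KRT8, and rows of KRT18 pseudogenes 0.787% to 1.46% of those of KRT18. The separate row of KRT86, close to KRT81 in sequence, had reads equal to 7.41% to 45.5% of those of KRT81, so the level of KRT81 is uncertain. With pseudogene and KRT86 reads added to their members, the calls stayed at 0 of 6 for silencing in each line.

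Genes whose pattern was most like each member were ranked by Pearson r of log2 values among 13995 genes, over 12 libraries that fall into 2 lines. For KRT7, after KRT7-AS, they were PODXL2 and GRIN2D (both 0.998), and for KRT19 TMX1 (0.998), PCDH7 (0.996) and MID1IP1-AS1 (0.995). KRT8 was most like GFM1 (0.974), ZFAT (0.97) and TADA2B (0.965), KRT18 like CPLX1 (0.988), WDR74 (0.987) and HNRNPAB (0.985), KRT80 like FHL2 (0.973) and PRKCSH (0.963), and KRT81 like FAM3C2 (0.875), PES1 (0.869) and ERCC1 (0.837). The line difference sets most of these values. After removal of group means, the highest were TMX1 for KRT19 (0.941), TMCO1 for KRT8 (0.94, second to a microRNA row), BCL7B for KRT18 (0.973, second to a clone-named row), LPAR3 for KRT80 (0.968) and TFAP4 for KRT81 (0.94). They are the largest of 13995 values over few libraries and are given with no test.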

How the data were processed

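RNA of 12 libraries was extracted with TRIzol and sequenced by standard Illumina protocols, per the labels' protocols. Reads were aligned to GRCh38 with HISAT2, and DESeq is also named, per the submitters' processing notes; versions, annotation release and strand use are not given in the sources used here. The deposited table gives RPKM for 38516 genes with exon positions and summed exon length per the file headers. RPKM times length gave whole reads (within 0.05 read) for 100% of values, so depth was recovered, 20035025 to 28202422 reads per library.

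Group came from the labels and replicate number from the titles. The 17823 genes that reached 0.5 RPKM in 3 or more libraries were fitted on log2(RPKM + 0.5) with limma 3.58.1 in R 4.3.3, as 4 group means over 12 libraries, with a mean-variance trend, two-sided p-values and Benjamini-Hochberg adjustment at 0.05. Single ratios used exact permutation tests (Python 3.11.15, scipy 1.17.1). The fitting code was tested on simulated data. Deviations from group means correlated at 0.147 to 0.415 in all 6 same-numbered pairs, and at -0.385 to 0.184 in other-numbered ones. KYSE150 control replicate 2 correlated less with silenced replicate 2 (0.147) than with silenced replicate 1 (0.184), so its pairing is uncertain. Numbers were taken to pair libraries, from this check of the data and not from the labels. The pairing gives the replicate block.

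The members and lists were chosen with earlier results of these data known. Exact tests had been planned for the type II to type I ratio and for the keratin share. Both were computed once and then left out, since a p-value for a score over chosen members is no evidence about them; their values are given as descriptions. Named genes are all members, other keratins with a group mean of at least 10 RPKM, up to 3 called genes and the 2 most higher in each control line per list, and the 3 genes most like each member outside the keratin family, with KRT7-AS counted under its table name. Alternatives were 2 pseudocounts (0.1 and 1), 2 filters, median centring, quantile normalization, voom on recovered reads, each line alone, the block, added pseudogene reads and leaving out each library. A comparison of short sequence stretches is not reported here.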

Additional observations from a re-analysis of the deposited data

Results flagged for a closer look

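The log2 ratio of type II to type I members moved in opposite directions in the lines: it was lower on silencing in 3 of 3 KYSE150 pairs (-0.08, -0.36 and -0.03) and higher in 3 of 3 KYSE510 pairs (0.01, 0.19 and 0.17). The KYSE510 change exceeded the KYSE150 change by 0.28. It stands out because every pair of a line moved one way and every pair of the other line the opposite way. The 6 members, the KRT8 to KRT18 ratio and the keratin share were screened alike, and none of them showed this. The difference between the lines was not tested. The smallest shifts, of 0.01 and -0.03, are well within the spread between replicates.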

How the results depend on the processing

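Over 42 results, 723 of 747 recomputed values kept their direction and their side of the threshold or, for ratios and shares given without a test, moved by less than the replicate SD. Of these, 7 changed sign: 6 of the type II to type I ratio averaged over lines (to between 0.0034 and 0.025, from -0.018) and 1 of the keratin share between lines (to 0.0053, from -2.51 percentage points). In the 7 that lost a call, it was KRT80 between lines each time: beside the libraries named above, with no filter in controls (adjusted p 0.0547), and with median centring (0.0594) or quantile normalization (0.0501) in silenced libraries. The other 17 reversed, all of changes that had missed the threshold. Quantile normalization gave 0.049 for KRT8 and 0.11 for KRT18 on silencing in KYSE150, and centring -0.030 for KRT80 there. Leaving out single libraries gave ranges of -0.13 to 0.11 for KRT18 in KYSE150, -0.13 to 0.24 for KRT7, -0.091 to 0.18 for KRT19 and -0.26 to 0.37 for KRT80 in KYSE510, and -0.068 to 0.30 for KRT81 between silenced lines. The cause was not tested. The replicate block changed no call of a member, with adjusted p-values of 0.0799 to 0.982; it moved genes called over all from 89 to 1194 in KYSE150, from 7 to 20 in KYSE510 and from 96 to 488 averaged over lines. Across all settings these counts ran from 0 (KYSE150 libraries alone) to 1291, 2 to 44 and 43 to 488, and for the difference between lines, 0 as reported, from 0 to 10. On whole reads, voom called 128, 5 and 129. Centring moved the higher calls from 67 of 89 to 54 of 116 in KYSE150, from 4 of 7 to 6 of 8 in KYSE510 and from 64 of 96 to 64 of 124 averaged over lines. The median change of all genes was -0.12 for the difference between lines and -0.19 between silenced lines, so member values there are to be read against it. Depth limits KRT81 and, in KYSE150, KRT19. With an RPKM of at least 1 required, KRT81 was not tested.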

Other observations

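TP63, the transcription factor that marks squamous cells, was the only 1 of 8 squamous markers called on silencing averaged over lines without the replicate block (log2 change 0.32, SE 0.06, limma adjusted p 0.0483). With the block 6 of 8 were called higher there, where 2.06% of all genes were: TP63, KRT5, KRT14, KRT6A, DSC3 and PKP1, with adjusted p-values of 0.00259 to 0.0372. Within lines 0 of 8 were called by limma, and with the block 7 of 8 were higher in KYSE150, where 5.04% of all genes were, and 1 of 8 in KYSE510, where 0.0842% were. In KYSE150 these included DSG3, a desmosomal cadherin (0.48, blocked adjusted p 0.0437), and PKP1 (0.56, 0.0187). The markers KRT5, KRT14 and KRT6A are also on the list of stratified keratins. Between control lines SOX2, a transcription factor of the esophageal lineage, was higher in KYSE510 (3.82, SE 0.17, limma adjusted p 7.27e-09).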
